A study of Homo sapiens with 24 samples.

Results

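The B-cell receptor (BCR) signalling genes described here are 41 genes of the pathway that runs from the antigen receptor to calcium, nuclear factor of activated T cells (NFAT), NF-kB and mitogen-activated kinases. They were chosen by name, with earlier results of these data known. Every probe set whose only gene symbol in the platform annotation was 1 of the 41 was taken. That gave 122 of the 54613 probe sets that were not controls, and 41 of the 19775 genes with a probe set. Each gene was represented by its brightest probe set over the 24 arrays, and 40 of the 41 genes lay above the filter on low values. The exception was NFATC2, an NFAT transcription factor, whose highest intensity on any array was 115.

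RNA came from P3HR1, a long-established cell line of human Burkitt lymphoma, infected with Epstein-Barr virus. Cells held the doxycycline-inducible vector pRTS1 with green fluorescent protein (GFP) and the miR-28 precursor (miR-28 cells) or with GFP alone (control cells). All 4 groups were induced with doxycycline: miR-28 cells and control cells after 12 h, and miR-28 cells and control cells after 24 h, with 6 arrays each. Every group had 3 inductions of each of 2 bulk populations, A and B, so arrays of a population are repeats of 1 culture line and p-values measure the spread between arrays. The labels give the dose as 0.1 ug/ml in one field and 1 ug/ml in another, identically for all groups. No uninduced cells and no stimulation of the receptor are among the arrays, and GFP and doxycycline were present in both genotypes.

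The BCR is a membrane immunoglobulin bound to the signalling chains CD79A and CD79B. SRC-family kinases phosphorylate these chains, SYK docks there and activates BTK and phospholipase C through the adaptor BLNK, and the signal spreads to calcium, protein kinase C and exchange factors for RAS and RAC. Burkitt lymphoma arises from germinal-centre B cells and relies on tonic, antigen-independent BCR signalling through SYK and phosphoinositide 3-kinase. MicroRNAs such as miR-28 lower target mRNAs by pairing of their seed with the 3' untranslated region. The mature 3' arm of miR-28, from RefSeq on GRCh38.p14 at chr3:188688834-188688855, plus strand, is shown because it is one product of the induced precursor, with its seed (bases 2 to 8) in capitals. The 5' arm is miR-28-5p.
hsa-miR-28-3p: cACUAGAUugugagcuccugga

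The cells carried B-cell RNA: 7 of 8 B-cell markers had a probe set used here and their median intensity was 8129, while the medians were 53.0 (myeloid), 64.4 (T-cell), 47.5 (NK-cell) and 50.9 (fibroblast or epithelial). Of these 7, CD79A, CD79B, MS4A1, BLNK and BANK1 are also members here, and CD22 and PAX5 (medians 4217 and 8630) are not. The 5 plasma-cell markers had a median of 1861, with JCHAIN at 22837, XBP1 at 3610 and TNFRSF17 at 1861, and SDC1 and PRDM1 at 60.6 and 165. LCK, a T-cell marker and a member here, was the exception among T-cell markers with a median of 5105, while CD3D, CD3E and CD3G had medians of 60.8, 95.7 and 66.5. The median intensity per array averaged 80.7 ± 5.12 in miR-28 cells and 84.2 ± 4.96 in control cells at 24 h (SD, n = 6 each). In 6 exact permutation tests of array quality between genotypes, two-sided, the lowest p was 0.0823 (0.494 after adjustment). The 3' to 5' ratio of the ACTB control probe sets exceeded 1 (log2) in 2 libraries, miR-28 population B induction 2 at 12 h (1.05) and control population B induction 2 at 24 h (1.59).

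After 24 h, 6 of the 40 tested BCR genes were higher in miR-28 cells and 0 were lower. The kinases SYK, BTK and FYN, the adaptors BLNK and BANK1 and the receptor chain CD79B rose by 0.24 to 0.36 on the log2 scale, or 1.18-fold to 1.29-fold. Tests were made with limma across all 11380 genes above the filter, called at a Benjamini-Hochberg adjusted p under 0.05 and called "rose" or "fell" only there. Among all genes tested, 2.6% were called higher and 2.75% lower at 24 h. Members and lists were chosen with earlier results known, so shares over all genes are given here and below as description only. At an unadjusted p under 0.05, 11 members were higher and 2 lower, beside 1150 higher and 985 lower of all 11380 genes. The median log2 difference was 0.06 over the 40 members and 0.02 over all genes, and 26 of 40 members lay above 0, against 53.9% of all genes. The split of calls over all genes depended on the scaling: 48.6% were higher as deposited, and 72.6% after centring each array on the median of all probe sets, where 8 members were called, all higher. Centring over the probe sets above the filter gave 40.3% higher, with 4 members called, all higher.

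At 12 h 0 of the 40 members were called by limma, where 0.536% of all genes were called in either direction (25 higher and 36 lower, and 12 higher and 33 lower after centring over all probe sets). At an unadjusted p under 0.05, 1 member was higher (FYN) and 3 were lower (ITPR3, NFATC1 and BCL10). Over all 11380 genes, 592 were higher and 508 lower at that threshold. The difference of the genotype effect between 24 h and 12 h was tested as an interaction and limma called 0 members. All genes gave 0 calls there too (0.0%), against 787 genes at an unadjusted p under 0.05. Among members, 6 had an unadjusted p under 0.05 for the interaction, all with the larger value at 24 h. The 24 h effect is therefore not shown to differ from the 12 h effect for any member.

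**Figure D1:**
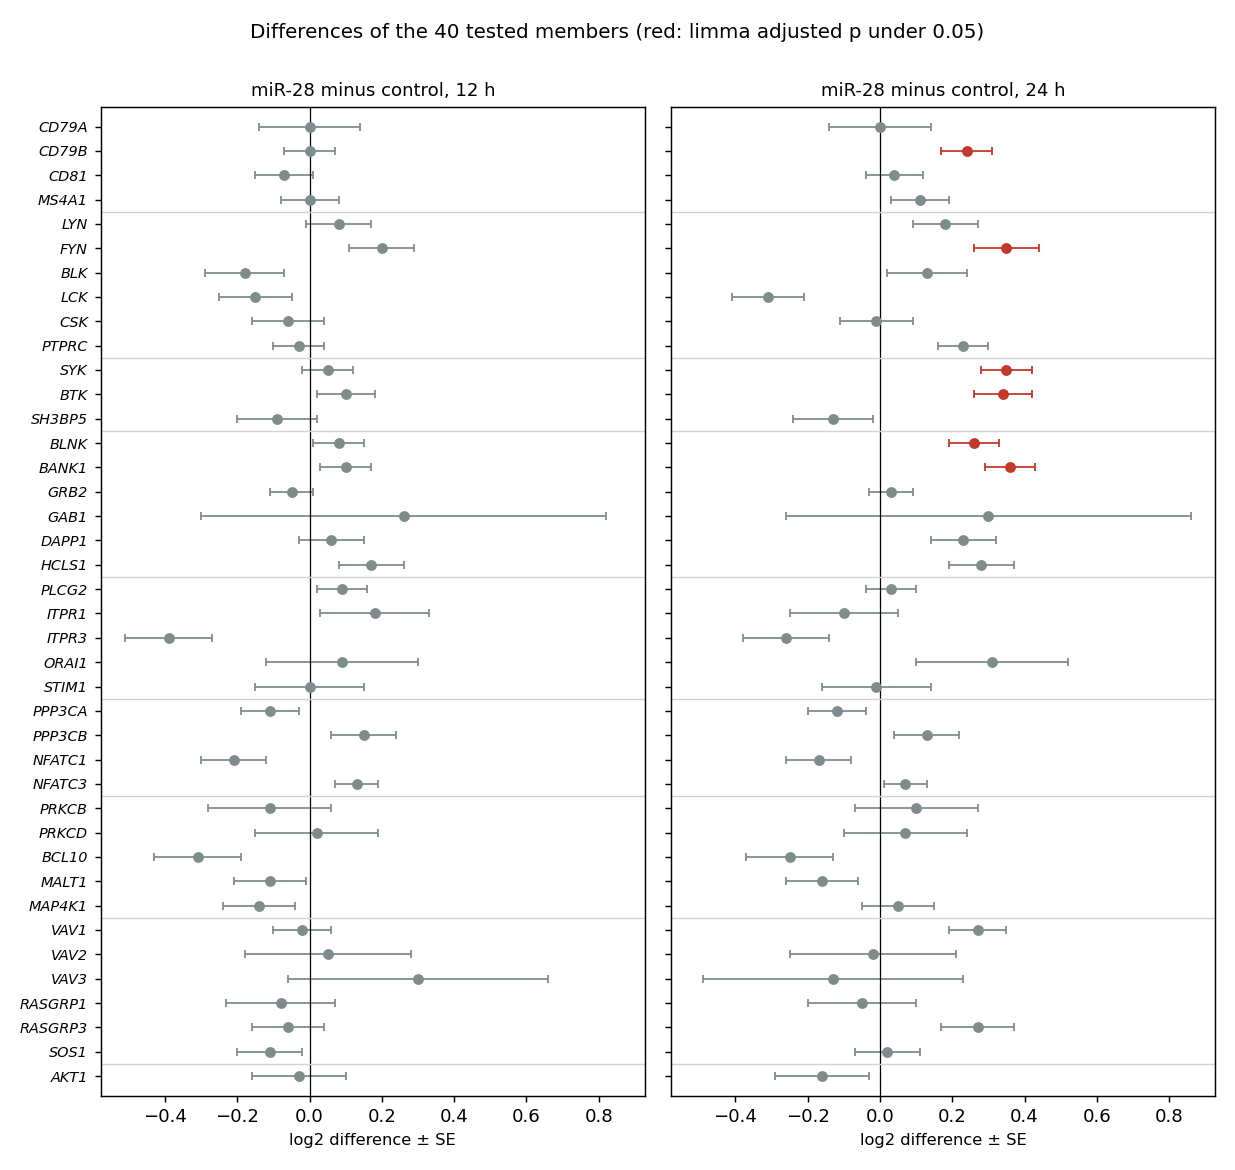
Log2 difference, miR-28 minus control, with its standard error for the 40 tested members at 12 h (left panel) and 24 h (right panel), ordered by role from receptor chains at the top to AKT1 at the bottom, with grey lines between roles. Red points mark the 6 members with a limma adjusted p under 0.05, all at 24 h and all to the right of 0.

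SYK is the tyrosine kinase that docks on the phosphorylated receptor chains and starts the cytoplasmic cascade. Its intensity at 24 h had a lowest, median and highest value of 5431, 5574 and 5841 in miR-28 cells, against 3872, 4495 and 5022 in control cells. Every miR-28 array lay above every control array. The log2 difference was 0.35 ± 0.07 (SE; limma adjusted p = 0.00556), and at 12 h it was 0.05 ± 0.07 (adjusted p = 0.913). BTK, the TEC-family kinase that SYK activates and that in turn acts on phospholipase C, had 2320, 2775 and 3135 in miR-28 cells and 1903, 2187 and 2326 in control cells at 24 h (lowest, median, highest). The groups overlapped at 1 miR-28 array, and the other 5 lay above the highest control array. The log2 difference of BTK was 0.34 ± 0.08 (limma adjusted p = 0.0154). SH3BP5, an inhibitor of BTK, had a log2 difference of -0.13 ± 0.11 (limma adjusted p = 0.584).

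Of the 6 adaptors and scaffolds, 2 rose at 24 h, where 2.6% of all genes were called higher. All 6 values lay above 0, as did 53.9% of all genes, with GRB2 at 0.03 and GAB1 too dim for a usable estimate. BANK1, a B-cell scaffold that links LYN to the calcium channel of internal stores, had 1786, 1842 and 2196 in miR-28 cells and 1299, 1481 and 1580 in control cells at 24 h (lowest, median, highest). The groups did not overlap, and the difference of 0.36 ± 0.07 had the smallest adjusted p of the members (limma, 0.00174). BLNK, the adaptor that brings BTK and phospholipase C to SYK, had 4015, 4413 and 4732 in miR-28 cells and 3470, 3627 and 3958 in control cells. Its groups did not overlap either, and the difference was 0.26 ± 0.07 (limma adjusted p = 0.0351). SYK, BANK1 and BLNK were the 3 of 40 members whose 2 groups of arrays did not overlap at 24 h, which 3.5% of all genes tested showed in either direction.

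HCLS1, a cortactin-like actin regulator phosphorylated by SRC-family kinases and SYK, had 7866, 8676 and 9218 in miR-28 cells and 5922, 7173 and 8318 in control cells at 24 h. Its groups overlapped, with 4 miR-28 arrays above the highest control array, and the log2 difference of 0.28 ± 0.09 did not pass (limma adjusted p = 0.0693). DAPP1, a phosphoinositide-binding adaptor, had 1611, 1913 and 2127 in miR-28 cells and 1418, 1607 and 1787 in control cells. The groups overlapped, and the difference was 0.23 ± 0.09 (limma adjusted p = 0.151). GRB2, the adaptor that carries SOS1 to the membrane, had 0.03 ± 0.06. The scaffold GAB1 was dim, with means of 86.0 in miR-28 and 62.0 in control cells, and its 0.30 ± 0.56 gives no usable estimate.

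Among the SRC-family kinases and their regulators, 1 of 6 rose at 24 h, where 2.6% of all genes were called higher. FYN had 1207, 1325 and 1543 in miR-28 cells and 911, 1008 and 1291 in control cells at 24 h (lowest, median, highest). Every miR-28 array exceeded the control median and 4 of 6 exceeded the highest control array. The log2 difference was 0.35 ± 0.09 (limma adjusted p = 0.0257), and at 12 h it was 0.20 ± 0.09 (adjusted p = 0.469). LYN, the kinase that most often starts BCR signalling in B cells, had 0.18 ± 0.09 (limma adjusted p = 0.299). BLK, a B-lineage kinase of the family, had 1248, 1731 and 2182 in miR-28 cells and 1302, 1632 and 1731 in control cells, with wide overlap and a difference of 0.13 ± 0.11.

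LCK, the family member best known from T cells, was the strongest of the values below 0. It had 3843, 4651 and 5542 in miR-28 cells and 5034, 5808 and 6694 in control cells at 24 h. In 5 of 6 miR-28 arrays it was below the lowest control array, and the log2 difference was -0.31 ± 0.10 (limma adjusted p = 0.0775). PTPRC, the phosphatase CD45 that removes the inhibitory phosphate of these kinases, had 6950, 7151 and 8172 in miR-28 cells and 5672, 6383 and 7007 in control cells. In 5 of 6 miR-28 arrays it was above the highest control array, and the difference of 0.23 ± 0.07 missed the threshold (limma adjusted p = 0.0626). CSK, the kinase that adds that inhibitory phosphate, had -0.01 ± 0.10.

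CD79B, a signalling chain of the receptor, had 7914, 9475 and 9987 in miR-28 cells and 6661, 8077 and 8513 in control cells at 24 h. The lowest miR-28 array lay inside the control range and the other 5 above it. The log2 difference was 0.24 ± 0.07 (limma adjusted p = 0.0463), and at 12 h it was 0.00 ± 0.07 (adjusted p = 0.998). Its partner CD79A had 0.00 ± 0.14 at 24 h (limma adjusted p = 0.997). CD81, a membrane protein of the tetraspanin family, had 0.04 ± 0.08, and MS4A1, the surface protein CD20, had 0.11 ± 0.08. Of these 4 receptor-level genes, CD79B alone was called, beside 2.6% called higher among all genes.

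**Figure D2:**
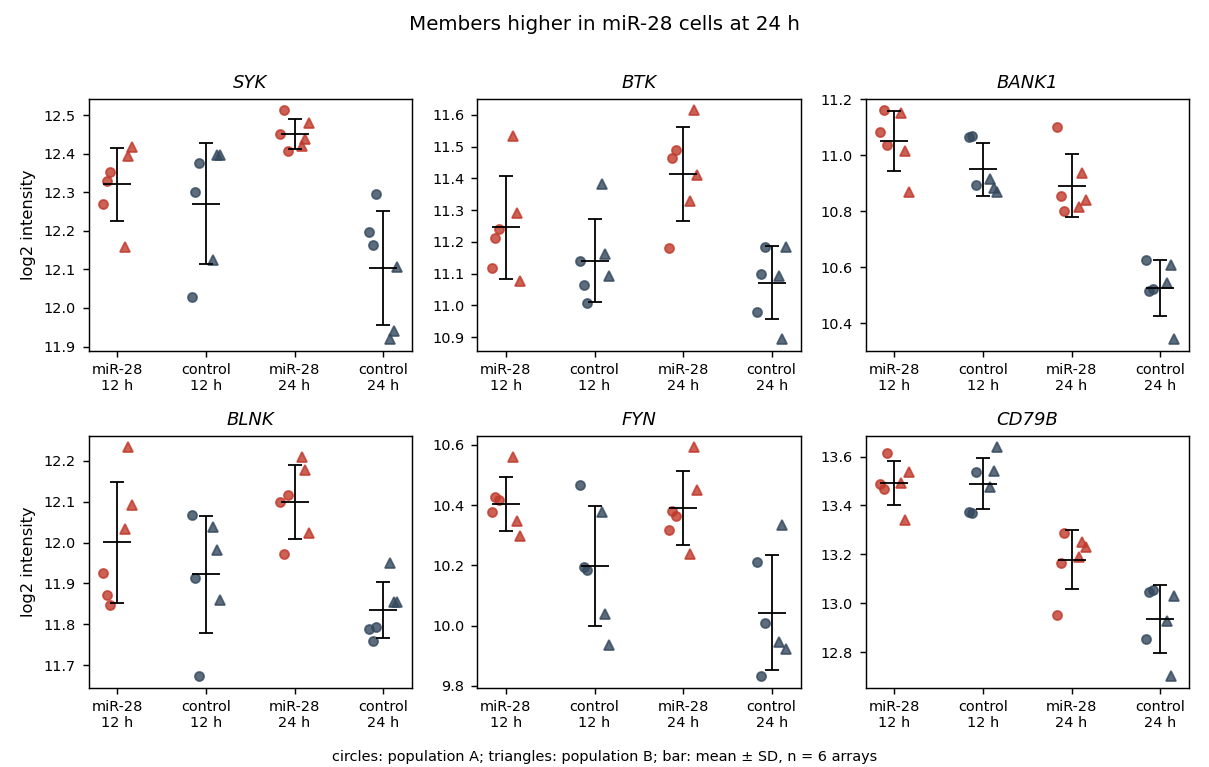
Log2 intensity of the 6 members called at 24 h on each of the 24 arrays, with miR-28 arrays in red and control arrays in dark blue at 12 h and then at 24 h, circles for population A and triangles for population B, and bars for the mean ± SD of 6 arrays. At 24 h the miR-28 arrays of SYK, BANK1 and BLNK all lie above the control arrays. At 12 h the groups of all 6 genes overlap on their brightest probe sets.

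Leaving out 1 array at a time, BANK1, SYK and BTK were called at 24 h in all 24 fits (limma adjusted p at most 0.00606, 0.0155 and 0.0462). FYN was called in 19 of 24 and lost without control array A2, B1 or B3 or miR-28 array B2 or B3 of 24 h (limma adjusted p up to 0.069). BLNK was called in 16 of 24 and lost without control array A1, A2, A3 or B3 or miR-28 array A1, A3, B1 or B2 of 24 h (limma adjusted p up to 0.0858). CD79B was called in 11 of 24. It was lost without control array A1, B1, B2 or B3 of 24 h, miR-28 array A2, A3, B1, B2 or B3 of 24 h, control array A1 or B2 of 12 h, or miR-28 array A1 or B3 of 12 h (limma adjusted p up to 0.104). CD79B was also lost without the 2 arrays of high ACTB ratio (0.20, limma adjusted p = 0.092), where 5 members were called.

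All 6 called members had a difference above 0 in each population. In populations A and B the log2 differences at 24 h were 0.36 and 0.37 for BANK1, 0.24 and 0.46 for SYK, 0.29 and 0.39 for BTK. They were 0.33 and 0.36 for FYN, 0.28 and 0.25 for BLNK and 0.15 and 0.34 for CD79B. With population A alone, population B alone or the population means as the unit, limma called 0 members, in fits that called 48, 38 and 0 of all genes. The difference of the effect between populations gave 0 called members by limma and 0 of all genes (0.0%), with 3 members at an unadjusted p under 0.05 (706 of all genes). Those 3 were RASGRP3 (0.53 in A and 0.01 in B), LCK (-0.51 and -0.10) and SH3BP5 (0.14 and -0.40). Letters are not known to pair miR-28 with control populations, so a difference by letter sets unrelated cultures against each other.

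The promoters of the rising genes are shown where RefSeq promoter windows (GRCh38.p14, 250 bases before to 50 after the gene start) hold a sequence that several of them share. Among the 41 members 32 had a window, and 5 of the 6 called ones (not CD79B). The letters AGGAAGT, an ETS-family consensus read on both strands, stood in 15 of 32 member genes and in 9.91% of all 27305 genes with a window. By window, the letters stood in 16 of 52 member windows and in 8.24% of all 35116 windows. They stood in 4 of the 5 called genes, and not in FYN. Capitals mark AGGAAGT, or ACTTCCT where it lies on the other strand, and each stretch reads 5' to 3' on the gene's strand. The stretches lie at chr4:101790649-101790679 (plus strand) for BANK1, chr9:90801726-90801788 (plus strand) for SYK, chr10:96271755-96271785 (minus strand) for BLNK and chrX:101390807-101390979 (minus strand) for BTK.
BANK1: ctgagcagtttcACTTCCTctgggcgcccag
SYK: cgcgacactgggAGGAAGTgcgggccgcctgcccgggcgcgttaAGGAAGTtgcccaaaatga
BLNK: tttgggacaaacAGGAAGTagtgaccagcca
BTK: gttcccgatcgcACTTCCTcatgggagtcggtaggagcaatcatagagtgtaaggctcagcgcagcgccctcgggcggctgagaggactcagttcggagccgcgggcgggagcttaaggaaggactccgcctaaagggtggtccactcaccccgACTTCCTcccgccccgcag

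These matches are a description of letters and not of binding. SYK and BTK each hold 2 matches in 1 of their windows, BANK1 and BLNK 1 each, and a gene with several starts has several windows. In all, 11 motifs were searched on both strands. GAGGAA, a PU.1-type core that can overlap AGGAAGT, stood in 15 of 32 member genes (31.81% of all genes), and CACTTCC, which also can overlap it, in 9 (13.4%). The octamer ATGCAAAT stood in 3 (2.19%), the E-boxes CACGTG in 2 (8.77%) and CAGGTG in 15 (24.07%), and the GC box GGGCGG in 20 (48.3%). TATAAA stood in 3 (13.99%), the EBF1-type CCCNNGGGA in 6 (10.59%), the IRF-type AAANNGAAA in 1 (12.58%) and the NF-kB-type GGGNNTTTC in 4 (5.78%).

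Several probe sets per gene gave a second reading of the same arrays. Of the 122 member probe sets 101 lay above the filter. At 24 h limma called 10 higher and 1 lower, against 1.27% higher and 1.48% lower of all 27306 probe sets tested. At 12 h 0 were called (0.165% of all in either direction), with 12 at an unadjusted p under 0.05, beside 2189 of all 27306. BANK1 rose on 3 of 3 probe sets (0.36, 0.45 and 0.55) and SYK on 3 of 4 (0.35, 0.29 and 0.49), the fourth having 0.18 ± 0.15. At 12 h the 3 BANK1 probe sets had 0.10, 0.25 and 0.28, none called (limma adjusted p = 0.799, 0.585 and 0.339). Without 1 array the BANK1 value of 0.45 was lost for control arrays A2, A3 and B3 and miR-28 arrays A1, B1 and B2 of 24 h (limma adjusted p up to 0.0796). The SYK value of 0.29 was lost for control array B2 and miR-28 arrays B2 and B3 of 24 h (limma adjusted p up to 0.0693). That of 0.49 was lost for control arrays A3, B1 and B2 and miR-28 arrays A2, A3, B2 and B3 of 24 h (limma adjusted p up to 0.0884). BTK has 1 probe set, called in this fit too (limma adjusted p = 0.0316), and lost without control array A1, B1 or B2 or miR-28 array A2, A3, B2 or B3 of 24 h (adjusted p up to 0.087). BLNK, also with 1, and CD79B on its brightest were not called when all probe sets were adjusted for (limma adjusted p = 0.069 and 0.087).

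All 4 DAPP1 probe sets had values above 0 at 24 h. The 2 next in brightness to the first rose by 0.37 ± 0.07 and 0.48 ± 0.11 (limma adjusted p = 0.00667 and 0.0163), and the brightest (0.23 ± 0.09) and the dimmest (0.65 ± 0.24) were not called (adjusted p = 0.212 and 0.171). Differences between the probe sets were not tested. On the second of the called ones the intensities at 24 h were 1258, 1518 and 1791 in miR-28 cells and 866, 1158 and 1224 in control cells (lowest, median, highest). The groups did not overlap there. FYN was called on its brightest probe set (limma adjusted p = 0.0486, kept in 8 of 24 fits without 1 array, those without control array A1, A3, B1, B2 or B3 or miR-28 array B1 of 12 h or control array A1 or B2 of 24 h) and its other 4 had 0.24, 0.58, -0.65 and 0.29, none called. The -0.65 came from a dim probe set with a standard error of 0.36. At 12 h these other 4 FYN probe sets had 0.47, -0.03, 0.30 and -0.55, none called. On the one with 0.47 ± 0.11 (limma adjusted p = 0.102) the groups did not overlap at 12 h. How many of all probe sets lacked overlap at 12 h was not counted.

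NFATC1, a calcium-responsive transcription factor, had the 1 member probe set that fell. On it the intensities at 24 h were 550, 587 and 810 in miR-28 cells and 654, 915 and 1091 in control cells (lowest, median, highest). In 5 of 6 miR-28 arrays it lay below the lowest control array, and the log2 difference was -0.53 ± 0.13 (limma adjusted p = 0.0324). The brightest NFATC1 probe set had 1303, 1541 and 1848 in miR-28 cells and 1604, 1721 and 2010 in control cells. Its difference was -0.17 ± 0.10 in the probe-set fit (adjusted p = 0.402), and the other 3 had -0.07, -0.36 and -0.42. All 5 values lay below 0, with 1 called. The fall was kept in 16 of 24 fits without 1 array, and lost without control array A1, A3 or B1 or miR-28 array A1, A2, B1, B2 or B3 of 24 h (limma adjusted p up to 0.0774). Without the 2 arrays of high ACTB ratio the value was -0.53 (limma adjusted p = 0.0507), and 7 member probe sets were called higher and 0 lower.

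**Figure D3:**
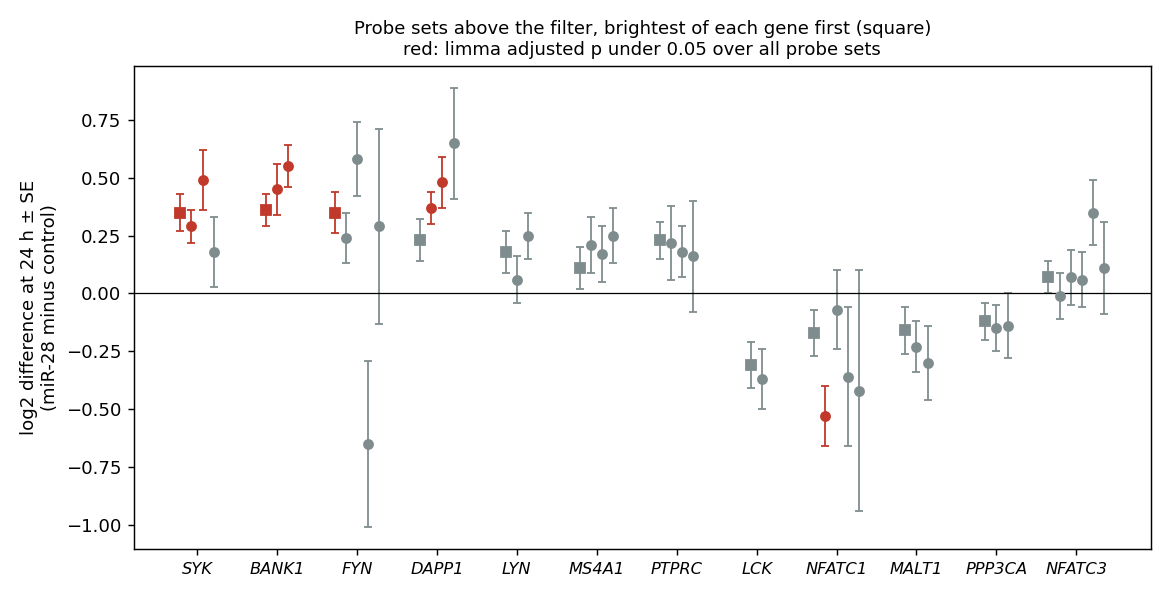
Log2 difference at 24 h, miR-28 minus control, with its standard error for every probe set above the filter of 12 member genes with several probe sets, brightest first and drawn as a square. Red marks a limma adjusted p under 0.05 over all probe sets: 3 of BANK1, 3 of SYK, 1 of FYN and 2 of DAPP1 above 0, and 1 of NFATC1 below 0.

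In the branches below BLNK limma called 0 of 21 tested genes at 24 h on the brightest probe sets, a count near the background, since 2.6% of all genes were called higher and 2.75% lower. At an unadjusted p under 0.05 there were 3, 2 higher and 1 lower, beside 1150 higher and 985 lower of all 11380 genes. Phospholipase C gamma 2 (PLCG2), which makes the messengers of the calcium and protein kinase C branches, had 0.03 ± 0.07 at 24 h. The calcium release channels ITPR1 and ITPR3 had -0.10 ± 0.15 and -0.26 ± 0.12 (limma adjusted p = 0.266 for ITPR3), and at 12 h ITPR3 had -0.39 ± 0.12 (adjusted p = 0.247). At 12 h ITPR3 intensities were 539, 590 and 715 in miR-28 cells and 690, 822 and 856 in control cells, with overlap at the ends. The store sensor STIM1 and the plasma membrane channel ORAI1 had -0.01 ± 0.15 and 0.31 ± 0.21. The calcineurin catalytic subunits PPP3CA and PPP3CB, which activate NFAT, had -0.12 ± 0.08 and 0.13 ± 0.09, and NFATC3 had 0.07 ± 0.06.

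In the protein kinase C branch the log2 differences at 24 h were 0.10 ± 0.17 for PRKCB, the isoform that signals to NF-kB, and 0.07 ± 0.17 for PRKCD. The NF-kB adaptor BCL10 had -0.25 ± 0.12 (limma adjusted p = 0.252), its protease partner MALT1 -0.16 ± 0.10 and the kinase MAP4K1 0.05 ± 0.10. Among exchange factors, VAV1, which acts on RAC, had 1651, 1858 and 1980 in miR-28 cells and 1260, 1559 and 1846 in control cells (lowest, median, highest). In 4 of 6 miR-28 arrays it was above the highest control array, and the difference of 0.27 ± 0.08 missed the threshold (limma adjusted p = 0.0646). RASGRP3, an exchange factor for RAS, had 953, 1272 and 1419 in miR-28 cells and 805, 1104 and 1127 in control cells. Its 0.27 ± 0.10 did not pass (limma adjusted p = 0.14). VAV2, VAV3, RASGRP1 and SOS1 lay between -0.13 and 0.02, and AKT1, a kinase of the survival branch, had -0.16 ± 0.13.

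The change with time was set beside these values, although it uses the same arrays and is no independent check of them. In miR-28 cells 2 members rose and 2 fell between 12 h and 24 h, against 2.65% higher and 2.0% lower of all genes. In control cells 1 rose and 6 fell, against 3.6% higher and 2.54% lower. Scaling moved these splits: of all calls in miR-28 cells 57.0% were higher as deposited, 68.8% after centring over the probe sets above the filter and 90.3% after centring over all probe sets. In control cells the shares were 58.7%, 74.9% and 66.5%. After centring over all probe sets the member calls were 4 higher and 0 lower in miR-28 cells, and 1 higher and 3 lower in control cells.

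CD79B fell in both genotypes, by 0.31 ± 0.07 in miR-28 cells (limma adjusted p = 0.0167) and by 0.55 ± 0.07 in control cells (adjusted p = 8.89e-05). At 12 h its intensities were 10382, 11499 and 12548 in miR-28 cells and 10581, 11651 and 12744 in control cells, which overlap almost fully. BANK1 changed by -0.16 ± 0.07 in miR-28 cells (limma adjusted p = 0.197) and fell by 0.42 ± 0.07 in control cells (adjusted p = 0.000652). At 12 h BANK1 had 1869, 2135 and 2289 in miR-28 cells and 1869, 1917 and 2151 in control cells. PTPRC changed by -0.10 ± 0.07 in miR-28 cells and fell by 0.36 ± 0.07 in control cells (limma adjusted p = 0.00418), with 7170, 7822 and 8851 in miR-28 cells and 7093, 8092 and 8919 in control cells at 12 h. CD79B, BANK1 and PTPRC were called in control cells in all 24 fits that left out 1 array.

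BLK and RASGRP3 fell in control cells by 0.46 ± 0.12 and 0.37 ± 0.11 (limma adjusted p = 0.0226 and 0.0405), and had -0.14 ± 0.12 and -0.04 ± 0.11 in miR-28 cells. At 12 h BLK had 1618, 1878 and 2052 in miR-28 cells and 1769, 2073 and 2461 in control cells, and RASGRP3 had 1057, 1324 and 1478 in miR-28 cells and 1222, 1329 and 1443 in control cells. NFATC3 fell in both, by 0.27 ± 0.06 in miR-28 cells and 0.22 ± 0.06 in control cells (limma adjusted p = 0.0186 and 0.046). Its 12 h values were 1876, 2035 and 2159 in miR-28 cells and 1701, 1860 and 2063 in control cells, and its 24 h values 1580, 1660 and 1805 against 1427, 1589 and 1772. Without 1 array, the control-cell calls of BLK, RASGRP3 and NFATC3 were kept in 21, 17 and 7 of 24 fits (limma adjusted p up to 0.0576, 0.103 and 0.108). BLK was lost without control array A3 of 12 h or A1 or B1 of 24 h, and RASGRP3 without control array A2, A3, B1 or B2 of 12 h, control array A1 or A3 of 24 h or miR-28 array B1 of 24 h. NFATC3 was kept without control array A3 of 12 h, miR-28 array B3 of 12 h, control array A2 or A3 of 24 h or miR-28 array A1, A3 or B2 of 24 h, and lost without any other. Without the 2 arrays of high ACTB ratio NFATC3 had -0.18 in control cells (limma adjusted p = 0.105).

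Between 12 h and 24 h PRKCB rose by 0.79 ± 0.18 in miR-28 cells (limma adjusted p = 0.0123), beside 0.58 ± 0.18 in control cells (adjusted p = 0.0537). Its intensities were 601, 880 and 1266 at 12 h and 1164, 1508 and 2023 at 24 h in miR-28 cells, and 800.0, 876 and 1230 at 12 h and 1120, 1370 and 1894 at 24 h in control cells. ITPR3 rose by 0.46 ± 0.13 in miR-28 cells (limma adjusted p = 0.0411), beside 0.33 ± 0.13 in control cells. AKT1 rose by 0.51 ± 0.13 in control cells (limma adjusted p = 0.0234), beside 0.37 ± 0.13 in miR-28 cells. AKT1 had 605, 714 and 857 at 12 h and 803, 988 and 1003 at 24 h in miR-28 cells, and 570, 738 and 945 at 12 h and 805, 1074 and 1448 at 24 h in control cells. All 3 genes had values above 0 in both genotypes, and the difference between genotypes was not called for any (interaction adjusted p of 0.917, 0.934 and 0.934). The AKT1 call was kept in 19 of 24 fits and lost without control array B1 or B2 of 12 h or A1, A2 or A3 of 24 h (limma adjusted p up to 0.0687). The ITPR3 call was kept in 13 of 24, and lost without control array B1 or miR-28 array A1, A2, B1, B2 or B3 of 12 h or miR-28 array A1, A2, A3, B2 or B3 of 24 h (limma adjusted p up to 0.0897).

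**Figure D4:**
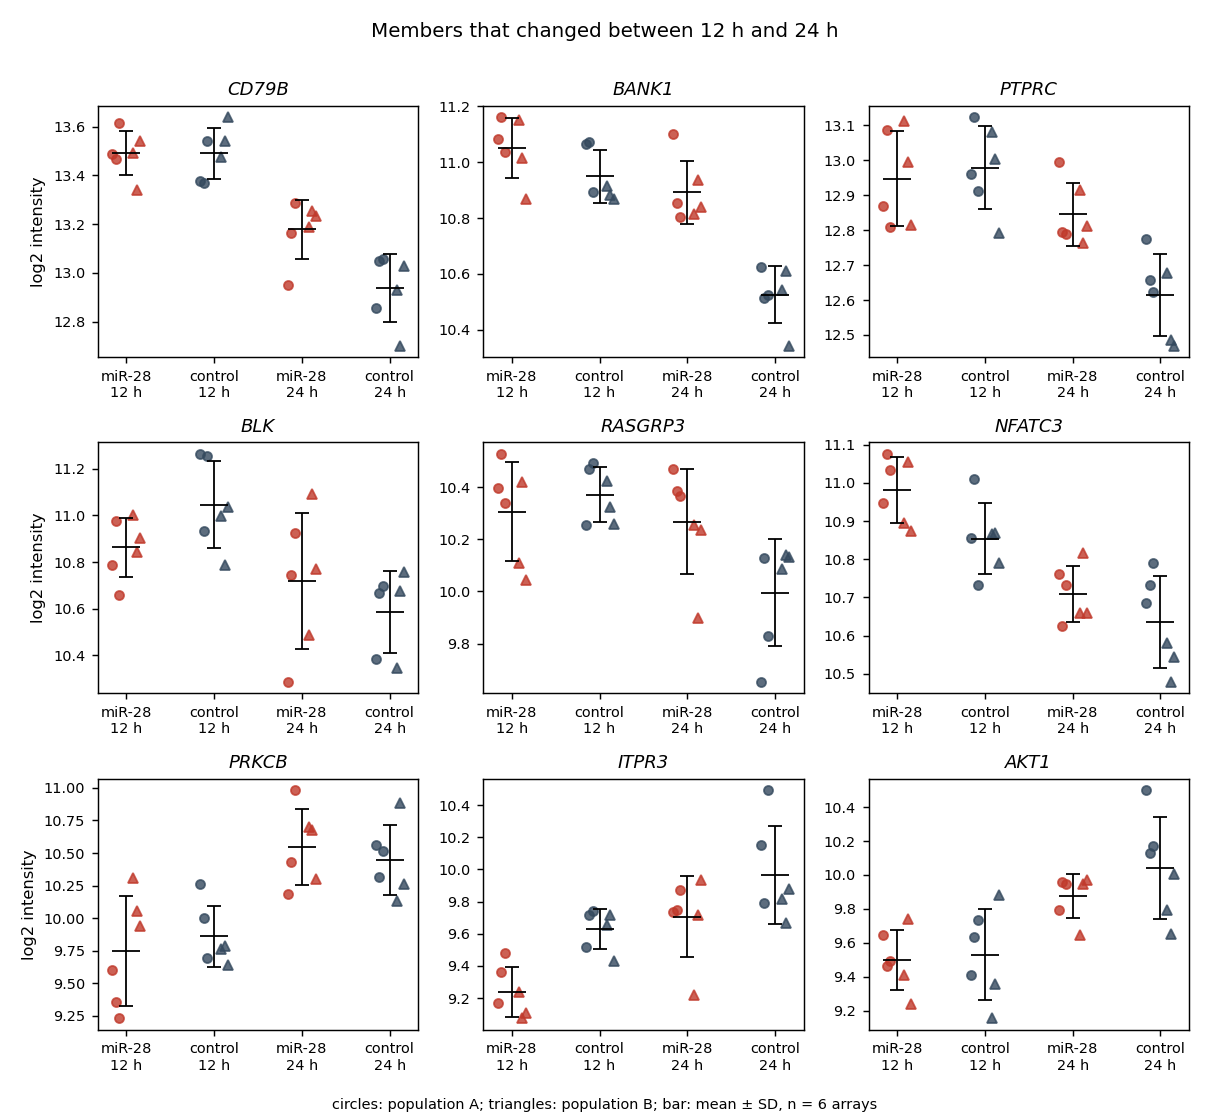
Log2 intensity of the 9 members called between 12 h and 24 h in either genotype, on each of the 24 arrays, with miR-28 arrays in red and control arrays in dark blue at 12 h and then at 24 h, circles for population A, triangles for population B and bars for the mean ± SD of 6 arrays. CD79B and NFATC3 are lower at 24 h in both genotypes, BANK1, PTPRC, BLK and RASGRP3 fell in control cells, and PRKCB, ITPR3 and AKT1 have higher means at 24 h in both.

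Other genes of the pathway were read from a list of 58 names, of which 49 had a probe set of their own and 47 were tested. At 24 h 3 were called higher and 1 lower by limma. All 3 that rose belong to the 8 inhibitory receptors and phosphatases, beside 2.6% called higher among all genes. Of these 8, 7 had values above 0, beside 53.9% of all genes. FCGR2B, the inhibitory receptor for IgG with near-identical relatives that a probe set may also bind, had 1600, 1920 and 2253 in miR-28 cells and 1112, 1293 and 1369 in control cells, without overlap (0.56 ± 0.10, limma adjusted p = 0.0012). CD72, an inhibitory co-receptor, had 3358, 3850 and 4442 in miR-28 cells and 2588, 2794 and 3394 in control cells (0.42 ± 0.08, adjusted p = 0.00172), with overlap at 1 array. PTPN22, a phosphatase of SRC-family kinases, had 0.25 ± 0.07 (limma adjusted p = 0.04). In the probe-set fit this PTPN22 probe set was not called (limma adjusted p = 0.0774), nor were its others (0.51 and 0.42, adjusted p = 0.11 and 0.524).

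PAG1, a membrane adaptor that recruits CSK, was the 1 that fell, with 6822, 7320 and 8080 in miR-28 cells and 9695, 9906 and 10560 in control cells. The groups did not overlap (-0.45 ± 0.08, limma adjusted p = 0.0012), and its other 2 probe sets were called lower as well (-0.40 and -0.52). Calls of FCGR2B, CD72 and PAG1 were kept in all 24 fits without 1 array, and that of PTPN22 in 14. PTPN22 was lost without control array A1 of 12 h, control array A1, A3, B1 or B2 or miR-28 array A1, A2, A3, B1 or B2 of 24 h (limma adjusted p up to 0.0883). It was also lost with no filter (limma adjusted p = 0.119), centring over the probe sets above the filter (0.0818), no population block (0.0504) and without the 2 arrays of high ACTB ratio (0.0924). At 12 h 0 of the 47 were called by limma, with 6 at an unadjusted p under 0.05, beside 1100 of all 11380 genes.

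Genes that BCR signalling is known to induce were read as a second list of 23 names, 21 with a probe set and 16 tested. At 24 h limma called 3 higher and 1 lower, beside 2.6% higher and 2.75% lower of all genes. The chemokine CCL4 had 249, 342 and 429 in miR-28 cells and 108, 205 and 246 in control cells, without overlap (0.79 ± 0.16, limma adjusted p = 0.00521). The immediate early factor JUN was dim, with 141, 188 and 266 in miR-28 cells and 10.6, 82.7 and 189 in control cells (1.44 ± 0.37, adjusted p = 0.0207). In the probe-set fit this JUN probe set was called (limma adjusted p = 0.0321), and its other one had 0.87 ± 0.51 (0.433). PHACTR1, an actin regulator, had 0.43 ± 0.12 (limma adjusted p = 0.0375). In the probe-set fit neither its brightest probe set (0.43) nor its other one (0.47) was called (limma adjusted p = 0.0607 for each). EGR1, another immediate early factor, had 874, 1200 and 3259 in miR-28 cells and 1829, 2539 and 5244 in control cells, with overlap (-0.90 ± 0.26, limma adjusted p = 0.0426).

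The calls among response genes thus lay in both directions between genotypes, as did those among all genes. Without 1 array, the calls of CCL4, JUN, PHACTR1 and EGR1 were kept in 24, 23, 16 and 13 of 24 fits. JUN was lost without control array B3 of 24 h (1.27, limma adjusted p = 0.058). PHACTR1 was lost without control array A1, A2, A3 or B1 or miR-28 array A1, A2, A3 or B1 of 24 h (limma adjusted p up to 0.0859). EGR1 was lost without control array A1 or B3 of 12 h, control array A3, B1, B2 or B3 of 24 h or miR-28 array A1, A2, B1, B2 or B3 of 24 h (limma adjusted p up to 0.111). In the probe-set fit the brightest EGR1 probe set was not called (limma adjusted p = 0.0617), another was called at -0.68 ± 0.16 (0.0229), and the third had 0.31 ± 0.38. On the brightest, the value was -0.31 in population A and -1.49 in population B. Between 12 h and 24 h limma called 1 of the 16 lower in miR-28 cells and 7 lower in control cells, with 0 higher in both, beside 2.0% and 2.54% lower of all genes. Of the 7 in control cells, BCL2A1, EGR3 and JUN were lost after centring over all probe sets (limma adjusted p = 0.0872, 0.0526 and 0.0605), and BCL2A1 also after centring over the probe sets above the filter (0.0715). Values over the list had a median of -0.34 in miR-28 cells and -0.42 in control cells. At 12 h 0 of the 16 were called between genotypes by limma, with 1 (JUN) at an unadjusted p under 0.05, beside 1100 of all 11380 genes. JUN then had 274.5, 336 and 384 in miR-28 cells and 109, 186 and 222 in control cells. These groups did not overlap (0.92 ± 0.37, limma adjusted p = 0.395).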

How the data were processed

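The authors deposited a linear intensity for every probe set and array. Per the submitters' processing notes these came from MAS5, with no version or settings known here. Trimming 2% at each end, columns had means of 500.07 to 500.08. Biotin-labelled cRNA was made from total RNA, per the labels' protocols. Symbols came from the platform annotation, brought up to date by gene number with RefSeq's table. A gene was built only from probe sets with 1 symbol.

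Values were analysed as log2(intensity + 8), a scale on which fold changes of dim genes are understated. The brightest probe set stood for a gene, and genes with a mean above 6.108, the median of probe sets that were not controls, were tested. limma 3.58.1 (R 4.3.3, statmod 1.5.0) fitted 1 mean for each of the 4 groups. The bulk population was a random block, with a consensus correlation of -0.0229. Each population lay within 1 genotype and the correlation was below 0. The block therefore made the standard errors of genotype differences slightly smaller, and did not allow for spread between populations. At 24 h limma called 296 genes higher and 313 lower with the block, and 256 higher and 275 lower without it. Tests were two-sided, adjusted by the Benjamini-Hochberg method over all 11380 genes and called under 0.05. A second fit covered all 27306 probe sets above the filter. A fit with a mean for each genotype, population and time tested the difference between populations. The script was tested on simulated data. Figures were drawn with matplotlib in Python. Precision is set by how many arrays a group has, as there is no read depth.

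Replicate numbers did not pair samples. Deviations were taken from the mean of each population within its group. Their correlation lay between -0.086 and 0.087 for same-numbered arrays, so the numbers served only as names. It does not bear on whether the letters pair populations. No 2 of the 276 pairs of arrays held the same values.

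The members and lists were chosen with earlier results of these data known. All members are named. The 18 called in any gene comparison of genotype or time or in the probe-set fit, or among the first 10 by p at 24 h, are given in full. From the other lists the genes called at 12 h or 24 h are named. Alternatives covered the pseudocount, the filter, the scaling, the blocks, the populations, the choice of probe set and each array in turn. Centring over all probe sets was added after the data were seen.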

Additional observations from a re-analysis of the deposited data

Results flagged for a closer look

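Over the 18 members given in full, 72 groups of 6 arrays were examined for an array far from the others, and about 1 group in 20 is marked by chance. Gaps were taken on the log2 scale. In miR-28 cells at 24 h the lowest CD79B array, population A induction 1, had 7914 against 9178 for the next. That gap was 0.637 of the group's log2 range. In the same group the lowest ITPR3 array, population B induction 1, had 597 against 842 for the next, a gap of 0.696 of the log2 range. Both log2 gaps exceed the 95% critical value of Dixon's test for 6 values. On the linear intensities the CD79B gap does not exceed it.

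For 3 members the differences by letter lay on opposite sides of 0 at 12 h, with no overlap between genotypes in either letter. The share of all genes that do so was not counted, so the 3 cannot be set against a background. Each letter holds 3 arrays per genotype, and letters are not known to pair miR-28 with control populations. The difference between populations at 12 h was not tested. MS4A1 had a log2 difference of -0.23 in population A and 0.23 in population B, apart by 0.46. PRKCB had -0.58 in A and 0.37 in B, apart by 0.95. RASGRP1 had -0.56 in A and 0.39 in B, also apart by 0.95. In population A, RASGRP1 ranged between 671 and 895 in miR-28 cells and between 1063 and 1179 in control cells. In population B it ranged between 943 and 1002 in miR-28 cells and between 645 and 829 in control cells.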

How the results depend on the processing

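Counts of called members at 12 h, for the interaction and for the difference between populations were 0 under every alternative run. Population means and single populations can give no difference between populations, and were not run for it. At 24 h the 6 called genes became 3 with no filter on low values, 0 with population means as the unit, 0 with population A alone and 0 with population B alone. Leaving out 1 array gave 3 to 7, with 3 without control array B3 of 24 h. No alternative called a member lower at 24 h. BANK1, SYK and BTK were called in all 35 alternatives that kept both populations and single arrays as the unit, FYN in 28, BLNK in 25 and CD79B in 17. With the mean of all probe sets FYN had 0.16 and CD79B 0.05, and a dim FYN probe set had -0.65. Numbers do not pair samples, and the replicate block gave 8 genes at 24 h, 5 and 7 with time in miR-28 and control cells, and 8 probe sets. The 4 genes called with time in miR-28 cells became 1 with no filter and 0 with population means, with A or B alone or with the mean of probe sets, and 3 to 4 without 1 array. The 7 in control cells became 3 with no filter, 4 with centring over all probe sets, 4 with the mean of probe sets, 0 with population means, 0 with A alone and 1 with B alone. Leaving out 1 array gave 3 to 8, with 4 without control array B1 or B2 of 12 h and 3 without A1 of 24 h. The 11 called probe sets became 1 with no filter, 7 without the 2 arrays of high ACTB ratio and 0 with population means, A alone or B alone. Without 1 array they were 5 to 13, with 7, 5 and 6 without miR-28 arrays A2, B2 and B3 of 24 h. Some of these fits held fewer arrays or units, or more dim genes. The cause of the changed counts was not tested for any of them.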
